A study of Mus musculus with 18 samples.

Results

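The genes of nitric oxide, arginine and polyamine metabolism were followed in a mouse macrophage cell line through 10 genes chosen by symbol, of which 9 are described, called the members below: *Nos2*, *Gch1*, *Ass1*, *Slc7a2*, *Odc1*, *Oaz1*, *Azin1*, *Sat1* and *Srm*. All 9 were found among the 56748 genes of the authors' files, and all 9 passed the filter on low counts that left 13691 genes to test. *Slc7a2* and *Ass1* had few counts without a stimulus and passed through the stimulated libraries, so they had to differ between conditions to be tested, and counts over the members are given only as a description.

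RAW 264.7 is a macrophage-like line grown from a virus-induced mouse tumor. The study asked how *tert*-butylhydroquinone (TBHQ), a phenolic food antioxidant, changes the response of these cells to a bacterial and to a viral type of stimulus. Poly(A) RNA of 6 conditions was sequenced, with 3 libraries a condition and 18 in all. Control cells received no treatment, and TBHQ cells received 5 µM TBHQ for 4 h. LPS cells received bacterial lipopolysaccharide at 0.1 µg/mL for 12 h, and PIC cells received Poly(I:C), a mimic of double-stranded RNA, at 20 µg/mL for 12 h. LPS + TBHQ and PIC + TBHQ cells received TBHQ for 4 h and the stimulus for a further 12 h. TBHQ was dissolved in DMSO, and the methods name a DMSO control for the cytotoxicity assay but not for these libraries. They also do not say whether LPS and PIC cells were first kept for 4 h. Changes with TBHQ therefore cannot be told apart from those of the carrier or of a longer culture. TBHQ cells were therefore collected earlier than the pretreated and stimulated cells, while a figure legend and a table note of the paper count the control, kept in medium only, among the 12 h conditions. The methods call the libraries of a condition biological replicates but do not say that they came from separately grown cultures, so p-values measure only the spread between these libraries, which may be technical.

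Macrophages take up arginine through cationic amino acid transporters and can rebuild it from citrulline. Inducible nitric oxide synthase turns arginine into nitric oxide and citrulline and needs tetrahydrobiopterin as a cofactor, and arginine is also a source of ornithine. Ornithine decarboxylase opens the path from ornithine to the polyamines putrescine, spermidine and spermine, which antizyme restrains and which an acetyltransferase marks for breakdown or export.

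The libraries held 14423390 to 18851626 counts, with a median of 15742337, and 3 counts corresponded to 0.159 to 0.208 CPM (counts scaled to the size of the library), a floor that covers counting error only. Macrophage markers were present in every library: *Lyz2* had at least 61055 counts, *Cd68* at least 10929, *Csf1r* at least 6539 and *Ptprc* at least 3845. Some macrophage markers varied by more than 2 times over the 18 libraries: *Adgre1* from 11.5 to 70.7 FPKM, *Itgam* from 7.53 to 26.5, *Fcgr1* from 4.38 to 14.9 and *Csf1r* from 81.5 to 175. Summed over 7 macrophage markers, the level was 5211 to 5554 FPKM in the control, 4390 to 4583 with LPS and 4247 to 4418 with PIC, of which *Lyz2* was the most abundant. With TBHQ the sum was 4873 to 4959 FPKM, with LPS + TBHQ 5179 to 5395 and with PIC + TBHQ 4692 to 5060. The 3 T cell markers summed to at most 0.0705 FPKM and the 3 epithelial markers to at most 0.0279. The 2 B cell markers reached at most 0.338 FPKM, almost wholly *Cd79a* with up to 7 counts, and the 3 fibroblast markers 0.0523, led by *Pdgfra* with up to 8 counts. *Cd3e*, *Col1a2*, *Cdh1* and *Krt18* had 0 counts in all 18 libraries. The sum is mostly *Lyz2* (3399 to 4647 FPKM) and was lower with either stimulus than in the control, whereas *Ptprc* was higher with PIC (log2FC 0.51 ± 0.025, FDR 3.1e-14), and the part of this difference in the results below was not tested. Bulk libraries cannot tell fewer cells of a kind from less RNA per cell.

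Levels are given as FPKM (fragments scaled to gene length and library size). The authors' values also hold a constant for each library. Relative to each other it was 0.932 to 0.940 in the control, 0.993 to 1.003 with LPS and 1.099 to 1.103 with PIC. Levels with PIC therefore stand higher against the control than under library size alone. Changes are log2 fold changes (log2FC) from 1 edgeR quasi-likelihood fit over all 18 libraries. The standard error is from the spread of the replicates in log2 CPM, after a small count was added to each value. It is therefore not on the scale of the fit. At few counts, as for *Slc7a2* and *Ass1*, the added count narrows this spread, so the standard error can understate the uncertainty of the log2FC. The false discovery rate (FDR) is the Benjamini-Hochberg adjusted p of that test over all 13691 genes, and a gene was called below 0.05. LPS and PIC were compared with the same 3 control libraries, so these comparisons are not independent.

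With LPS, all 9 members were called against the control, 6 higher and 3 lower, where 48.1% of all tested genes were called. With PIC 8 of the 9 were called, 6 higher and 2 lower, where 58.7% of all genes were called. The 6 higher members were the same for both stimuli: *Nos2*, *Gch1*, *Ass1*, *Slc7a2*, *Odc1* and *Sat1*. The median absolute log2FC of the members was 1.03 with LPS and 1.57 with PIC, beside 0.25 and 0.33 over all tested genes. Added to LPS, TBHQ gave calls for 6 of the 9, 1 higher and 5 lower, where 23.9% of all genes were called. Added to PIC, it gave calls for 7 of the 9, 1 higher and 6 lower, where 31.3% were called. In these comparisons the members' median absolute log2FC was 0.38 and 0.41, beside 0.14 and 0.17 over all tested genes.

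Scaling to the total library size in place of TMM moved the median log2FC of all genes by more than 0.1 in 3 comparisons, to -0.232 for PIC against the control, -0.150 for PIC + TBHQ against the control and -0.138 for PIC against LPS. Changes of that size in the weakly changing members are therefore read beside this shift. Under that scaling, the members split into 6 higher and 3 lower for PIC against the control, 2 higher and 5 lower for PIC + TBHQ against PIC, 6 higher and 3 lower for PIC + TBHQ against the control, and 5 higher and 2 lower for PIC against LPS. Of all 13691 genes, 2379 were then called higher and 6635 lower for PIC, 3398 and 1436 for PIC + TBHQ against PIC, 2364 and 5515 for PIC + TBHQ against the control, and 985 and 4373 for PIC against LPS.

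**Figure D1:**
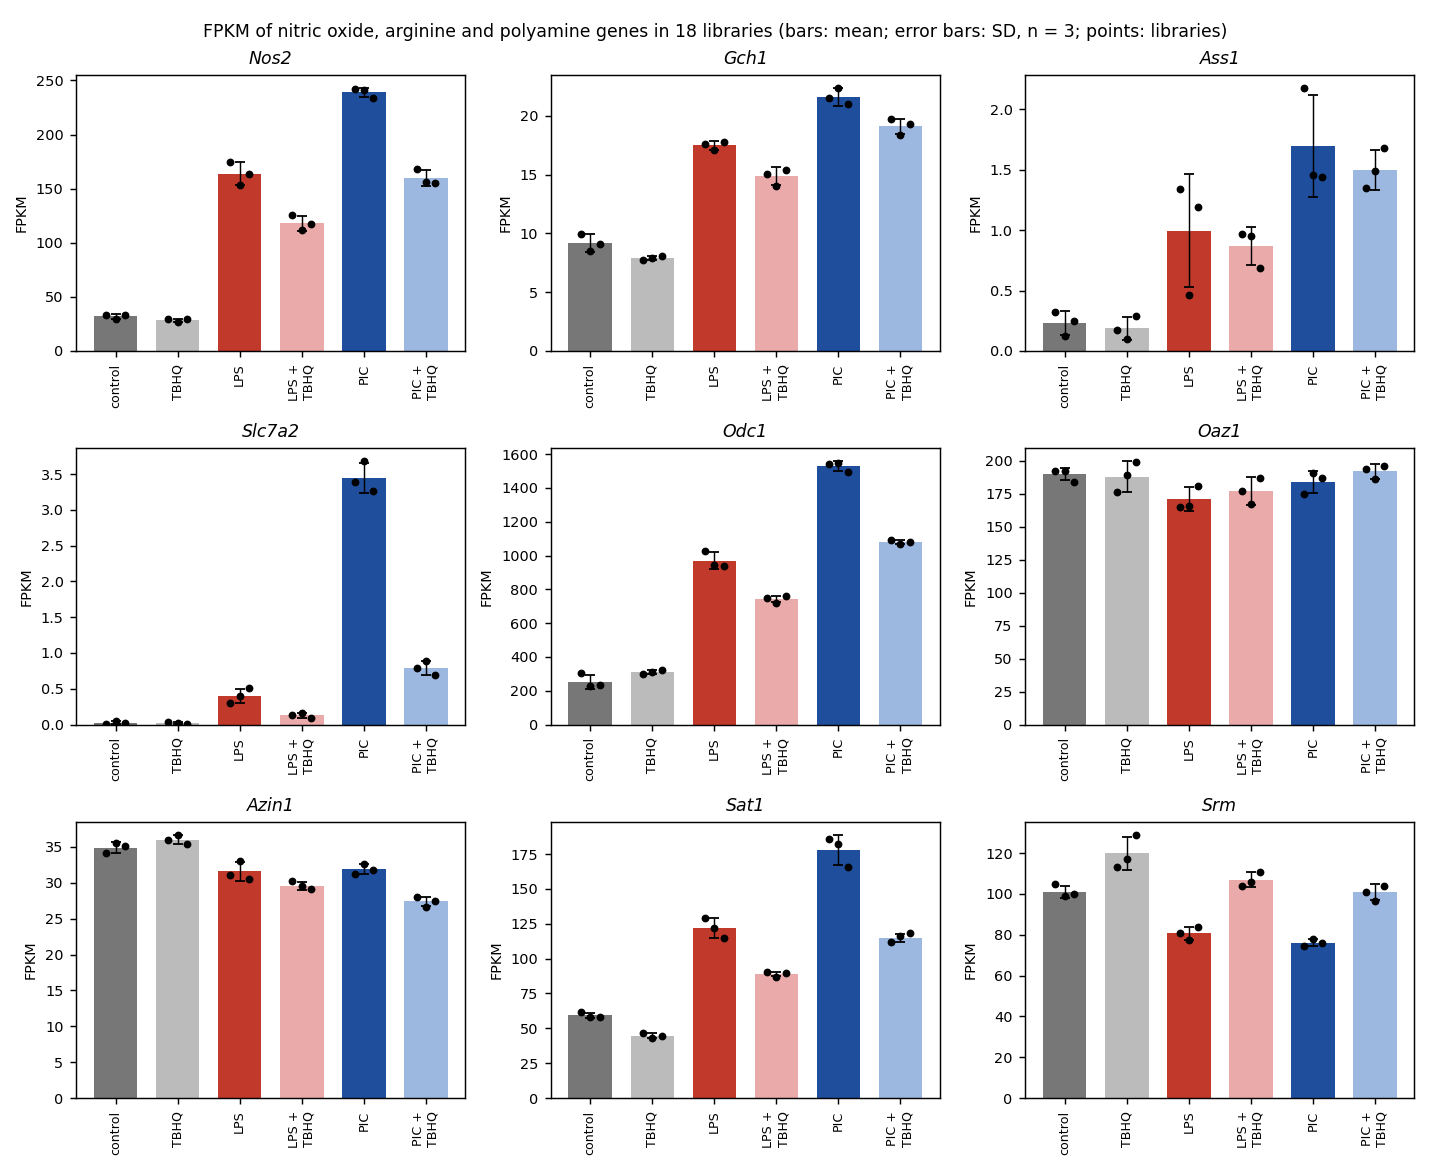
FPKM (vertical axes, from 0) of the 9 members in the 6 conditions (horizontal axes). Bars are means, error bars are SD of 3 libraries, and points are the 18 libraries. *Nos2*, *Gch1*, *Slc7a2*, *Odc1* and *Sat1* were higher with LPS or PIC than in the control and lower again with TBHQ added, whereas *Srm* showed the opposite order.

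*Nos2* (ENSMUSG00000020826, chromosome 11, 78811613 to 78851080) encodes inducible nitric oxide synthase. Positions here and below are those of the authors' files. The labels name both GRCm38 and mm39, and the positions are not those of GRCm38. In the control, *Nos2* stood at 29.2, 33.1 and 33.7 FPKM, and with TBHQ alone at 26.9, 29.1 and 29.1. LPS libraries had 153, 164 and 175 FPKM, and LPS + TBHQ libraries 112, 117 and 126. PIC libraries had 234, 241 and 242 FPKM, and PIC + TBHQ libraries 155, 156 and 168. Every stimulated library was above every unstimulated one, PIC was above LPS without overlap, and each pretreated condition lay below its own stimulus without overlap, so that PIC + TBHQ came to overlap LPS. *Nos2* rose with LPS by 2.35 ± 0.084 (SE, FDR 9.6e-30) on the log2 scale and with PIC by 2.88 ± 0.067 (FDR 9.4e-33). It fell by 0.47 ± 0.073 when TBHQ preceded LPS (FDR 3.2e-10) and by 0.57 ± 0.041 when it preceded PIC (FDR 2.3e-12). The higher level with PIC than with LPS was a log2FC of 0.53 ± 0.056 (FDR 1.7e-11). For nitrite, a measure of the product and not of RNA, the paper reports the opposite order, with more after LPS than after PIC.

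After TBHQ, *Nos2* was still above the control, by 1.88 ± 0.082 with LPS (FDR 9.0e-27) and by 2.31 ± 0.075 with PIC (FDR 9.3e-30). In mean FPKM, 65.3% of the LPS rise was left, with 60.3% to 71.1% in the separate LPS + TBHQ libraries. For PIC 61.7% was left, with 59.6% to 65.7% in the separate libraries. Here and below, such shares are counted from the control without TBHQ. Any change with TBHQ alone is therefore part of them. TBHQ alone gave a log2FC of -0.18 ± 0.075 (FDR 0.00818), and the groups nearly met, at 29.1 and 29.2 FPKM. That call was lost without control replicate 3 (-0.138, FDR 0.0742), without TBHQ replicate 2 (-0.142, FDR 0.0682) and with limma on log2(FPKM + 1) (-0.167, FDR 0.0654) and log2(FPKM + 0.1) (-0.172, FDR 0.0721).

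*Gch1* (ENSMUSG00000037580, chromosome 14, 47391352 to 47426870) encodes GTP cyclohydrolase, the rate-limiting enzyme of tetrahydrobiopterin synthesis. Its control libraries stood at 8.49, 9.11 and 9.97 FPKM and its TBHQ libraries at 7.74, 7.95 and 8.04. LPS brought 17.1, 17.6 and 17.8 FPKM and LPS + TBHQ 14, 15.1 and 15.4. PIC brought 21.0, 21.5 and 22.4 FPKM and PIC + TBHQ 18.4, 19.3 and 19.7. The 6 conditions did not overlap, in the order TBHQ, control, LPS + TBHQ, LPS, PIC + TBHQ and PIC. The rise of *Gch1* was 0.92 ± 0.069 on the log2 scale with LPS (FDR 2.2e-17) and 1.22 ± 0.073 with PIC (FDR 2.1e-21), smaller than those of *Nos2*. With TBHQ it fell by 0.24 ± 0.046 under LPS (FDR 3.0e-04) and by 0.16 ± 0.042 under PIC (FDR 0.00737). Of the LPS rise 68.1% was left in mean FPKM (57.9% to 75.2% in the separate libraries), and of the PIC rise 80% (74.0% to 84.6%). The PIC call was lost when libraries were scaled to their total (log2FC -0.0951, FDR 0.113). TBHQ alone lowered *Gch1* as well, with a log2FC of -0.22 ± 0.069 (FDR 0.00219). This is close to its fall under LPS, so the shares left do not show a weaker response to the stimulus by themselves.

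*Slc7a2* (ENSMUSG00000031596, chromosome 8, 41315433 to 41375345) encodes the cationic amino acid transporter CAT2, which carries arginine into activated macrophages. It was close to the floor of detection without a stimulus, with 1, 4 and 7 counts in the control and 1, 3 and 5 with TBHQ. There were 39, 52 and 66 counts with LPS and 15, 21 and 25 with LPS + TBHQ. PIC gave 423, 467 and 506 counts and PIC + TBHQ 102, 110 and 115. Each pretreated condition lay wholly below its stimulus, and PIC + TBHQ still lay wholly above LPS. In FPKM the range was 0.300 to 0.505 with LPS, 0.0936 to 0.165 with LPS + TBHQ, 3.27 to 3.68 with PIC and 0.696 to 0.886 with PIC + TBHQ.

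With so few control counts, the fold against the control is best given by pooled counts. The ratio of CPM to the control was 13.9 with LPS, with an exact 95% interval of 7.72 to 27.4 for counting error only, from 157 and 12 counts. For PIC the ratio of *Slc7a2* was 108, with an interval of 61.6 to 209, from 1396 and 12 counts. The edgeR log2FC was 3.84 ± 0.49 with LPS (FDR 1.1e-11) and 6.93 ± 0.45 with PIC (FDR 1.5e-23), and without control replicate 2, which held 7 of the 12 control counts, it was 4.49 and 7.58, and without control replicate 1 it was 3.43 and 6.52. After TBHQ the ratios were 4.61 (2.46 to 9.41) for LPS + TBHQ and 26.1 (14.7 to 50.9) for PIC + TBHQ. The edgeR values for these were 2.23 and 4.81, with 1.82 to 2.88 and 4.4 to 5.46 when a library was left out. *Slc7a2* had the widest gap between the stimuli among the members, with a log2FC of 3.09 ± 0.22 for PIC against LPS (FDR 1.1e-17). In edgeR it also had the largest drop with TBHQ among the members: it fell by 1.61 ± 0.30 under LPS (FDR 3.7e-06) and by 2.12 ± 0.11 under PIC (FDR 1.8e-14). Of the LPS rise in mean FPKM, 28.1% was left after TBHQ, with 17.9% to 36.9% in the separate libraries, and of the PIC rise 22.3% was left, with 19.6% to 25.1%. At so low a level, the size of these folds depends on the constant added. On log2(FPKM + 1), limma gave *Slc7a2* 0.446 with LPS, 2.11 with PIC, and -0.305 and -1.31 for TBHQ under LPS and PIC, and under LPS this drop was smaller than those of *Nos2*, *Sat1* and *Odc1*. On log2(FPKM + 0.1) it gave 1.97, 4.82, -1.1 and -2. All of these were called. TBHQ alone could not be told from the control, at a ratio of 0.719 (0.268 to 1.86).

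*Ass1* (ENSMUSG00000076441, chromosome 2, 31360219 to 31410684) encodes argininosuccinate synthase, which starts the return of citrulline to arginine. Few fragments were counted on it: 5, 10 and 12 in the control, and 4, 7 and 12 with TBHQ. LPS libraries had 16, 41 and 46 counts and LPS + TBHQ libraries 29, 38 and 39. PIC libraries had 49, 59 and 72 counts and PIC + TBHQ libraries 50, 51 and 65. Stimulated libraries lay above unstimulated ones, whereas libraries with and without TBHQ overlapped. The log2FC of *Ass1* was 2.09 ± 0.55 with LPS (FDR 2.2e-05) and 2.84 ± 0.37 with PIC (FDR 1.4e-08). With TBHQ the log2FC was -0.21 ± 0.48 under LPS (FDR 0.697) and -0.15 ± 0.21 under PIC (FDR 0.710), with standard errors larger than the values themselves. PIC against LPS was called at 0.75 ± 0.49 (FDR 0.0455), but not without LPS replicate 2 (0.411, FDR 0.302) nor without PIC replicate 1 (0.536, FDR 0.237). It was also not called by DESeq2 (0.765, FDR 0.0817), by limma on log2(FPKM + 0.1) (0.8, FDR 0.106), with the compared conditions alone (0.749, FDR 0.0539) or under scaling to library totals (0.622, FDR 0.0804).

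A processed pseudogene, *Gm5424*, holds 38.6% of the 50-base words of the *Ass1* transcripts, and how the authors' counting split shared fragments is not known. It had 5 to 12 counts in the control, 20 to 34 with LPS and 29 to 46 with PIC, of the same order as those of *Ass1* itself. Summed with these counts, which was tried after seeing the data, the log2FC of *Ass1* was 1.97 with LPS and 2.56 with PIC. Its values for TBHQ moved more, to -0.437 under LPS, -0.0166 under PIC and 0.42 for the difference between the stimuli. The counts of *Ass1* are therefore uncertain in level and in the change with TBHQ.

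*Odc1* (ENSMUSG00000011179, chromosome 12, 17594795 to 17601506) encodes ornithine decarboxylase, the rate-limiting enzyme of polyamine synthesis, and had the highest level of the 9 members per length. Control libraries had 228, 233 and 302 FPKM, and TBHQ libraries 297, 313 and 321. LPS libraries reached 938, 942 and 1026 FPKM, and LPS + TBHQ libraries 721, 750 and 758. PIC libraries reached 1495, 1544 and 1548 FPKM, and PIC + TBHQ libraries 1070, 1083 and 1090. The order was control, TBHQ, LPS + TBHQ, LPS, PIC + TBHQ and PIC, and only the control and TBHQ overlapped. *Odc1* rose by 1.92 ± 0.14 with LPS (FDR 2.4e-25) and by 2.57 ± 0.13 with PIC (FDR 2.4e-29). It fell by 0.38 ± 0.046 with TBHQ under LPS (FDR 1.1e-06) and by 0.49 ± 0.020 under PIC (FDR 6.3e-09), which left 68.4% of the LPS rise and 64.9% of the PIC rise in mean FPKM. TBHQ alone went the other way, with a log2FC of 0.29 ± 0.14 (FDR 1.4e-04), although 1 control library lay within the TBHQ range.

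*Odc1* has processed pseudogenes, of which *Gm7993*, *Gm17709* and *Gm9115* each hold at least 10% of its 50-base words. *Gm7993* was listed with 4494 to 5521 counts in the control, 15646 to 17241 with LPS and 25156 to 29679 with PIC, and it was the gene most like *Odc1* over the 18 libraries (r = 0.999). How the counting divided fragments between it and *Odc1* is not known. With the pseudogenes' counts added, a choice made after seeing the data, the log2FC of *Odc1* was 1.91 with LPS and 2.57 with PIC, and -0.392 and -0.496 for TBHQ under LPS and PIC. The level of *Odc1* is uncertain to that extent. These changes were nearly the same either way. Adding counts that follow *Odc1* this closely could hardly move them, so the sum cannot show whether the division of fragments matters.

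*Oaz1* (ENSMUSG00000035242, chromosome 10, 80662490 to 80665124) encodes antizyme 1, which binds ornithine decarboxylase and sends it to the proteasome. Its libraries covered 184 to 192 FPKM in the control, 176 to 199 with TBHQ, 165 to 181 with LPS and 167 to 187 with LPS + TBHQ. With PIC they covered 175 to 191 FPKM and with PIC + TBHQ 186 to 196. All neighbours in the order of the levels overlapped. *Oaz1* was lower with LPS than in the control (log2FC -0.16 ± 0.048, FDR 0.00313), and with PIC the log2FC was -0.06 ± 0.042 (FDR 0.262). Scaled to library totals, the PIC value was called too (-0.276, FDR 5.1e-07). LPS + TBHQ against the control was called at -0.11 ± 0.054 (FDR 0.0402), and this call was lost with DESeq2 (FDR 0.0777), RLE (FDR 0.0556), a mean of at least 50 counts (FDR 0.072) and limma (FDR 0.167 and 0.182), and without control replicate 1 (FDR 0.109) or 2 (FDR 0.116) or LPS + TBHQ replicate 1 (FDR 0.0894) or 2 (FDR 0.275). With against without TBHQ, the log2FC was 0.05 ± 0.066 under LPS (FDR 0.497) and 0.07 ± 0.045 under PIC (FDR 0.243), the latter called under scaling to library totals (0.139, FDR 0.00902). A processed pseudogene, *Oaz1-ps*, holds 20.1% of its 50-base words and had 88 to 160 counts, and with these added the log2FC was -0.16 with LPS and -0.0592 with PIC.

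*Azin1* (ENSMUSG00000037458, chromosome 15, 38487671 to 38519510) encodes antizyme inhibitor 1, which binds antizyme in place of the decarboxylase. The control held 34.1, 35.1 and 35.6 FPKM and TBHQ 35.4, 36.0 and 36.7. LPS libraries had 30.6, 31.1 and 33.0 FPKM, and LPS + TBHQ libraries 29.1, 29.5 and 30.2. PIC libraries had 31.3, 31.8 and 32.6 FPKM, and PIC + TBHQ libraries 26.7, 27.5 and 28.0. PIC + TBHQ was the lowest condition and did not overlap any other, followed by LPS + TBHQ. The log2FC of *Azin1* was -0.15 ± 0.040 with LPS (FDR 7.6e-04) and -0.15 ± 0.025 with PIC (FDR 8.8e-04). Scaled to library totals these were -0.24 and -0.37, so the size depends on the scaling. TBHQ lowered it further under PIC (-0.21 ± 0.028, FDR 3.8e-05), while the value under LPS was -0.10 ± 0.039 (FDR 0.0619). The latter was called without LPS replicate 3 (-0.118, FDR 0.0366) and among genes with a mean of at least 50 counts (-0.102, FDR 0.0357). Without LPS replicate 2 it was smaller, at -0.0594, and not called.

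Within a library the ratio of *Odc1* to *Oaz1* in FPKM, a comparison that needs no scaling between libraries, was 1.18 to 1.57 in the control and 1.61 to 1.69 with TBHQ. The ratio was 5.18 to 6.22 with LPS and 4.05 to 4.33 with LPS + TBHQ. It was 8 to 8.83 with PIC and 5.54 to 5.77 with PIC + TBHQ. Both pretreated conditions lay below their stimulus and well above the control. The ratio of *Azin1* to *Oaz1* moved little, from 0.177 to 0.191 in the control to 0.141 to 0.144 with PIC + TBHQ, the only condition wholly below the others.

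*Sat1* (ENSMUSG00000025283, chromosome X, 153996128 to 153999445) encodes spermidine/spermine acetyltransferase, which starts polyamine breakdown. Levels were 58.0, 58.2 and 61.6 FPKM in the control and 42.8, 44.8 and 46.7 with TBHQ. They were 115, 122 and 129 FPKM with LPS and 87.1, 89.6 and 90.4 with LPS + TBHQ. With PIC they were 166, 182 and 186 FPKM, and with PIC + TBHQ 112, 116 and 118. TBHQ libraries were below the matching libraries without it in all 3 settings, with no overlap, and PIC + TBHQ overlapped LPS. *Sat1* rose by 1.03 ± 0.055 with LPS (FDR 1.3e-20) and by 1.57 ± 0.060 with PIC (FDR 1.8e-26). With TBHQ it fell by 0.41 ± 0.047 in unstimulated cells (FDR 9.3e-09), by 0.45 ± 0.049 under LPS (FDR 1.9e-10) and by 0.61 ± 0.057 under PIC (FDR 4.5e-14). Of the rise above the control, 47.7% was left under LPS (44.6% to 49.9% in the separate libraries) and 47.3% under PIC (44.5% to 49.2%). These shares include the lower level with TBHQ alone. Mean FPKM was 44.8 with TBHQ alone, 89 with LPS + TBHQ and 115 with PIC + TBHQ. Without TBHQ it was 59.3 in the control, 122 with LPS and 178 with PIC.

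*Srm* (ENSMUSG00000006442, chromosome 4, 148675960 to 148679450) encodes spermidine synthase, which makes spermidine from putrescine. Control libraries had 99.2, 100 and 105 FPKM and TBHQ libraries 113, 117 and 129. LPS libraries had 77.6, 80.8 and 83.9 FPKM and LPS + TBHQ libraries 104, 106 and 111. PIC libraries had 74.5, 76.1 and 78.1 FPKM and PIC + TBHQ libraries 96.7, 101 and 104. The stimulated libraries without TBHQ were the lowest, and with TBHQ they overlapped the control. *Srm* fell by 0.33 ± 0.039 with LPS (FDR 1.2e-07) and by 0.43 ± 0.031 with PIC (FDR 3.7e-10). It was the only member higher with TBHQ under both stimuli at this threshold, by 0.41 ± 0.044 under LPS (FDR 6.7e-09) and 0.41 ± 0.038 under PIC (FDR 4.0e-09), and it also rose with TBHQ alone, by 0.24 ± 0.059 (FDR 4.8e-05). Against the control, LPS + TBHQ gave 0.07 ± 0.039 (FDR 0.192) and PIC + TBHQ -0.01 ± 0.041 (FDR 0.847), although the latter was called under scaling to library totals (-0.16, FDR 0.00172).

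*Sat1* and *Srm* moved in opposite directions by the values above. Their ratio within a library needs no scaling between libraries and shows only how far they moved apart. The ratio was 0.582 to 0.590 in the control, 0.347 to 0.411 with TBHQ, 1.37 to 1.59 with LPS and 2.18 to 2.49 with PIC. After TBHQ it was 0.806 to 0.872 with LPS and 1.1 to 1.2 with PIC. No condition overlapped another in this ratio.

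**Figure D2:**
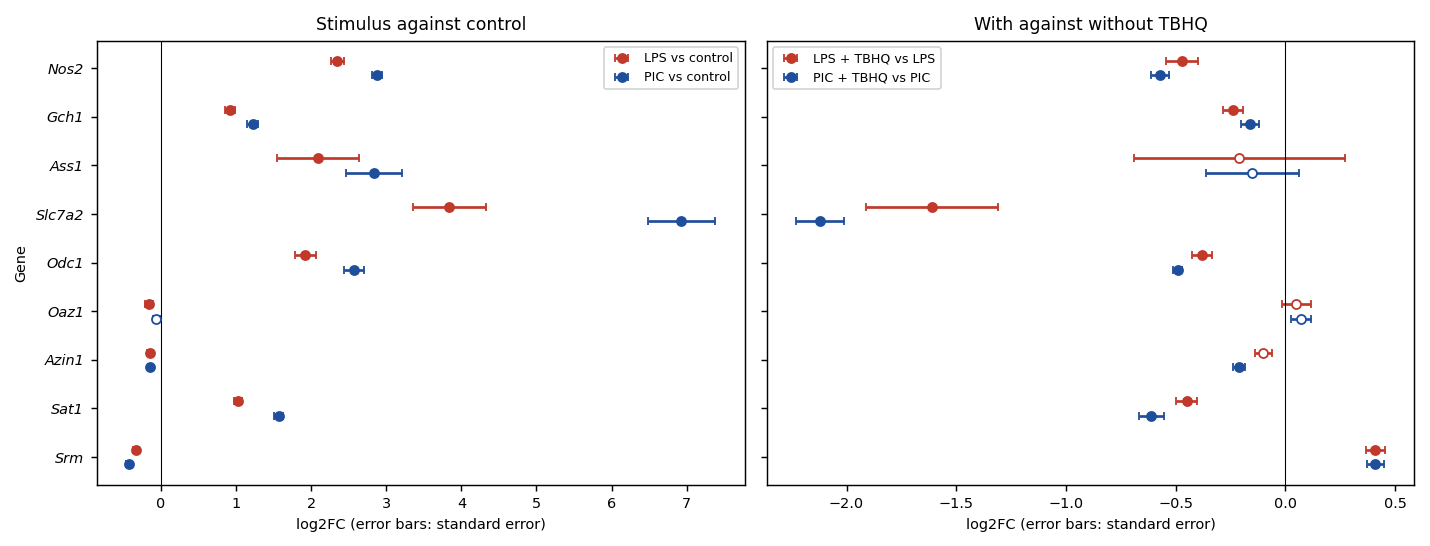
Log2FC (horizontal axes) of each member for a stimulus against the control (left) and for the stimulus with against without TBHQ (right). Points are log2FC with the standard error as bars, and filled points had an FDR below 0.05. The bars can understate the uncertainty of *Slc7a2* and *Ass1*, which had few counts. *Slc7a2* lay farthest from 0 in both panels, up to 6.93 with PIC, and *Srm* was on the opposite side from *Nos2*, *Odc1* and *Sat1*.

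Whether the change with TBHQ depended on the stimulus was tested directly, as the change under PIC minus that under LPS. edgeR called 0 of the 9 members, where 1.83% of all genes were called, and 2 of the 9 had an unadjusted p below 0.05, as did 14.2% of all genes. DESeq2 called 0, where 4.10% of all genes were called, and limma on log2(FPKM + 0.1) called 0, where 0.562% were. With limma on log2(FPKM + 1), 1 member was called, where 0.979% of all genes were. The difference in log2FC was -0.51 ± 0.32 for *Slc7a2* (FDR 0.463), -0.16 ± 0.075 for *Sat1* (FDR 0.183) and -0.11 ± 0.048 for *Azin1* (FDR 0.320). It was -0.10 ± 0.084 for *Nos2* (FDR 0.547), -0.11 ± 0.050 for *Odc1* (FDR 0.593) and 0.07 ± 0.062 for *Gch1* (FDR 0.689). For *Ass1*, *Oaz1* and *Srm* it was 0.05 ± 0.52, 0.02 ± 0.080 and 0.01 ± 0.058. Calls under 1 stimulus and not the other, as for *Azin1*, are thus not shown to differ between stimuli. The *Sat1* difference was called without PIC replicate 3 (-0.226, FDR 0.0275), and that of *Slc7a2* by limma on log2(FPKM + 1) (-1.01, FDR 1.9e-05).

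TBHQ alone gave calls for 5 of the 9 members against the control, where 29.0% of all genes were called. *Odc1* and *Srm* were higher, and *Nos2*, *Gch1* and *Sat1* lower. By the paper's account these cells were collected at 4 h and the control at 12 h, so this comparison holds a difference in time as well. LPS + TBHQ differed from the control in 8 members, 6 higher and 2 lower, where 43.7% of all genes were called, and PIC + TBHQ in 7, 6 higher and 1 lower, where 52.4% were called. PIC exceeded LPS in 6 members, where 27.7% of all genes differed, and these were the 6 that rose with both stimuli, with *Ass1* among them only by the call that several fits above did not keep. Of the others, *Oaz1* was also called higher with PIC with no filter (0.1, FDR 0.0397), without LPS replicate 3 (0.146, FDR 0.0196) and without PIC replicate 1 (0.137, FDR 0.0327). Under library totals, *Srm* (-0.223, FDR 1.5e-04) and *Azin1* (-0.123, FDR 0.00973) were called lower with PIC.

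By the threshold stated in the study's methods, an FDR below 0.01 with an absolute log2FC above 2, 3 members passed with LPS (*Nos2*, *Ass1* and *Slc7a2*), where 1.64% of all genes passed. With PIC 4 members passed, the same 3 and *Odc1*, where 3.57% of all genes passed. *Ass1* and *Slc7a2* passed the filter on low counts only through stimulated libraries, so the counts in this paragraph are only a description. For LPS + TBHQ 1 passed, *Slc7a2*, where 0.964% of all genes did, and 2 without LPS + TBHQ replicate 3. For PIC + TBHQ 4 passed, where 2.15% did, and for TBHQ alone 0 passed in edgeR, where 0.190% did. DESeq2 also gave 0 for TBHQ alone, and edgeR gave 5 members at an unadjusted p below 0.05 with no limit on the fold, where 37.9% of all genes had such a p. With LPS + TBHQ, *Nos2* (1.88) and *Ass1* (1.88) lay just under the limit. The count for LPS was 2 under library totals, with pseudogene counts summed and among genes with a mean of at least 50 counts. It was also 2 without control replicate 2, LPS replicate 1 or LPS replicate 3, and it was 4 without control replicate 1. Of all genes, 116 to 237 passed where the count was 2, and 247 where it was 4. *Ass1* with LPS was under the limit when summed (1.97) and without control replicate 2 (1.8).

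**Figure D3:**
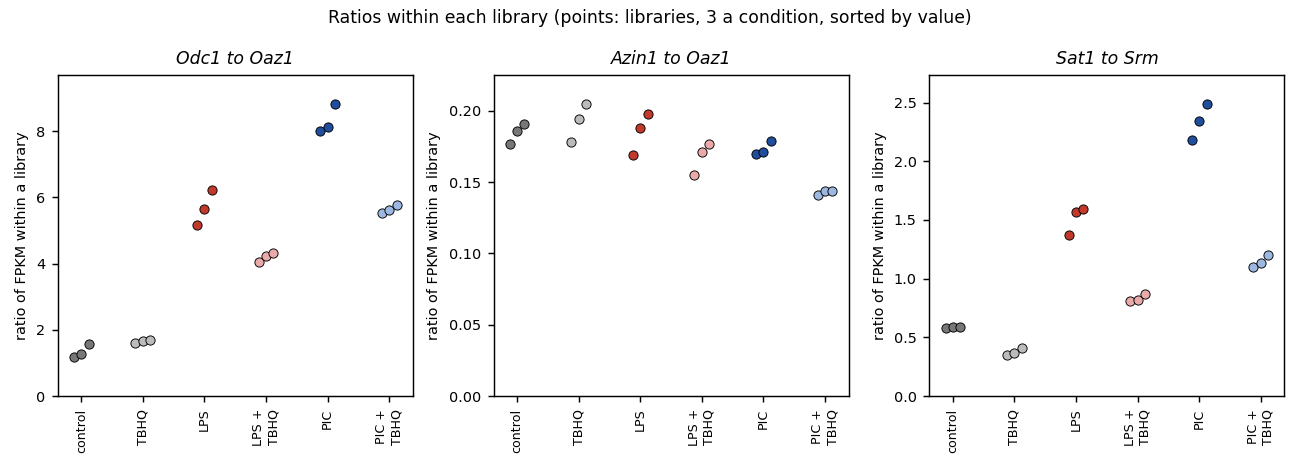
Ratios of FPKM within each library (vertical axes, from 0) by condition, 3 points a condition sorted by value. *Odc1* to *Oaz1* and *Sat1* to *Srm* were higher with LPS or PIC than in the control and lower again with TBHQ, and *Azin1* to *Oaz1* was lowest with PIC + TBHQ.

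The rest of the pathways was taken from 7 lists of 53 genes in all, of which 44 were tested, 35 of them outside the 9 members. Of these 35, 23 were called with LPS (9 of them higher, 14 lower) and 27 with PIC (11 higher, 16 lower), that is 65.7% and 77.1% beside 48.1% and 58.7% of all genes, with a median log2FC of -0.12 and -0.25 beside -0.0040 and -0.0146 over all genes. With TBHQ added to LPS 13 were called (10 higher and 3 lower), and added to PIC 11 were (7 higher and 4 lower), that is 37.1% beside 23.9% of all genes and 31.4% beside 31.3%, with a median of 0.04 and 0.10 beside 0.0023 and 0.0089. The lists were chosen with earlier results of these data known, so these shares are only a description. Among all genes with a mean of at least 50 counts, 58.1% were called with LPS and 67.8% with PIC. For TBHQ under LPS and under PIC, 31.0% and 39.6% of those genes were called. With PIC, 3 of the 35 were called with an absolute log2FC above 1: *Ddah2*, *Slc7a7* and *Smox*. The share of all genes past that limit is not given, so this count is only a description. *Ddah2* fell below the limit without control replicate 1 (0.831).

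Members included, nitric oxide synthesis had 6 tested genes, 2 higher with LPS and 3 with PIC, or 33.3% and 50% called, less than the 48.1% and 58.7% of all genes. Here and below, called shares of lists stand beside these 2 values and rest on few genes. Among them *Ddah2*, of the dimethylarginine dimethylaminohydrolase family, had 16 to 35 counts in the control and 42 to 66 with PIC (log2FC 1.08 ± 0.34, FDR 6.3e-04). The LPS value of *Ddah2* was 0.84 ± 0.33 (FDR 0.0105), a call that was lost without control replicate 1 (0.589, FDR 0.0898) and without LPS replicate 2 (0.738, FDR 0.0507). Of the 6 tested cofactor genes *Gch1* alone was called higher, and 3 were lower under LPS and 4 under PIC (66.7% and 83.3% called).

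Arginine supply had 7 tested genes, of which LPS raised 6, while PIC raised 6 and lowered 1 (85.7% and 100% called). *Slc7a1*, the CAT1 transporter, was far more abundant per length than *Slc7a2*, at 24.5 to 25.5 FPKM in the control, 35.7 to 36.7 with LPS and 34.6 to 37.9 with PIC. It rose by 0.53 ± 0.020 with LPS (FDR 8.1e-16) and by 0.53 ± 0.042 with PIC (FDR 3.9e-16), and TBHQ gave 0.01 ± 0.011 and -0.03 ± 0.040 under LPS and PIC (FDR 0.841 and 0.587). TBHQ alone raised *Slc7a1* without overlap, to 29.3 to 30 FPKM (log2FC 0.24 ± 0.021, FDR 5.4e-07), and was called lower for *Slc7a7* (-0.34 ± 0.057, FDR 0.0293) and *Asl* (-0.15 ± 0.058, FDR 0.0352). *Slc7a7*, a light chain of the y+L transporter, rose by 0.86 ± 0.056 with LPS (FDR 3.3e-08) and by 1.23 ± 0.072 with PIC (FDR 1.8e-12), and with TBHQ it had -0.07 ± 0.068 and -0.08 ± 0.097 (FDR 0.702 and 0.599). *Asl*, which completes the return to arginine, rose by 0.19 ± 0.050 with LPS (FDR 0.00345) and by 0.41 ± 0.053 with PIC (FDR 4.3e-08), and with TBHQ it had 0.21 ± 0.043 under LPS (FDR 0.00324) and 0.12 ± 0.034 under PIC (FDR 0.0793). Under scaling to library totals its LPS value was not called (0.107, FDR 0.102) and its value for TBHQ under PIC was (0.189, FDR 0.0041).

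Among ornithine genes, 6 of 10 were tested, and either stimulus gave 1 higher and 4 lower (83.3% called). All 6 polyamine synthesis genes were tested, with *Odc1* alone called higher, and 5 were lower under LPS and 4 under PIC (100% and 83.3% called). *Amd1*, which supplies the aminopropyl donor for spermidine and spermine, stood at 25.9 to 29.5 FPKM in the control, 17.5 to 18.4 with LPS and 17.4 to 18.8 with PIC. It fell by 0.62 ± 0.059 with LPS (FDR 1.4e-12) and by 0.64 ± 0.063 with PIC (FDR 3.4e-13), and with TBHQ it rose by 0.37 ± 0.029 (FDR 8.0e-07) and 0.24 ± 0.058 (FDR 4.5e-04), the directions of *Srm*. Unlike *Srm*, *Amd1* stayed below the control after TBHQ, without overlap, at -0.25 ± 0.056 with LPS (FDR 7.4e-05) and -0.39 ± 0.072 with PIC (FDR 2.5e-08). *Sms*, spermine synthase, had -0.21 ± 0.13 with LPS (FDR 0.0044), lost without control replicate 2 (-0.0881, FDR 0.187) and by limma (-0.186, FDR 0.0539, and -0.194, FDR 0.0627), and -0.11 ± 0.13 with PIC (FDR 0.124), which was called without control replicate 1 (-0.191, FDR 0.00699) and under scaling to library totals (-0.327, FDR 1.7e-05). With TBHQ *Sms* had -0.14 ± 0.047 under LPS (FDR 0.107, but 0.0322 with the compared conditions alone) and -0.23 ± 0.056 under PIC (FDR 0.00423).

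Polyamine control and breakdown had 10 tested genes, 3 higher and 4 lower with either stimulus (70% called). *Smox*, the spermine oxidase, stood at 9.76 to 10.4 FPKM in the control, 9.42 to 10.5 with TBHQ, 17.8 to 19.5 with LPS, 12.5 to 13.2 with LPS + TBHQ, 23.9 to 26.3 with PIC and 15.7 to 16.4 with PIC + TBHQ. *Smox* rose by 0.86 ± 0.048 with LPS (FDR 1.4e-15) and 1.28 ± 0.051 with PIC (FDR 2.7e-21), and TBHQ before the stimulus lowered it by 0.53 ± 0.044 (FDR 6.0e-10) and 0.63 ± 0.047 (FDR 3.3e-12), as for *Sat1*. Unlike *Sat1*, *Smox* was not called for TBHQ alone (log2FC -0.00 ± 0.06, FDR 0.965). Of the hypusination genes, which use spermidine to modify a translation factor, 3 were tested, and LPS gave 1 higher and 1 lower, PIC 2 higher and 1 lower (66.7% and 100% called). *Eif5a*, that factor, had 598 to 631 FPKM with LPS beside 604 to 622 in the control. Its LPS value, not called with TMM, was called lower when libraries were scaled to their totals (-0.107, FDR 0.00201). Its PIC value of 0.09 ± 0.017 (FDR 0.0129) turned to -0.13 there, also called (FDR 1.6e-04), and was not called without control replicate 3 (0.0736, FDR 0.0649).

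The genes most alike over the 18 libraries, by Pearson r of log2 CPM among 10451 genes, are given as a description, since the libraries are 6 groups of 3. For *Nos2* they were *Osgin2* (r = 0.998), *Nars* (0.996) and *Slc15a3* (0.995). For *Gch1* they were *Actg1* (0.991), *Mmp14* (0.991) and *Srgn* (0.990). *Slc7a2* was most like *St3gal1* (0.986), *Jak2* (0.984) and *Src* (0.984). *Ass1* was most like *Golga3* (0.975), *Rrbp1* (0.964) and *Bcorl1* (0.964). After its pseudogene, *Odc1* was most like *Ier3* (0.998) and *Plagl2* (0.995).

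Promoter windows of 300 bases (250 before to 50 after the start, RefSeq, GRCm38.p6) were listed for 5 of the 9 members: *Gch1*, *Ass1*, *Odc1*, *Oaz1* and *Sat1*, and not for *Nos2*, *Slc7a2*, *Azin1* or *Srm*. Both strands were searched for 5 motifs: an E-box (CACGTG, in 7.15% of all 32851 windows), the interferon-stimulated response element core GAAANNGAAA (3.44%), the GAS core TTCNNNGAA (8.30%), the antioxidant response element core TGACNNNGC (12.4%) and the NF-kB consensus (8.46%). *Gch1* held 1 NF-kB match, read on both strands, from 10 bases before the start. *Ass1* held 1 E-box, 36 bases before the start. *Oaz1* held 1 antioxidant core 13 bases before the start and 1 NF-kB match 201 bases before it. The windows of *Odc1* and *Sat1* held none of these letters. A match is a description of the letters and not a bound site. The windows of *Gch1*, *Ass1* and *Oaz1*, those with a match, are shown so that the matches, in capitals, can be read in place. They lie at chr14:47189364-47189663 on the minus strand, chr2:31470020-31470319 on the plus strand and chr10:80826406-80826705 on the plus strand.
Gch1: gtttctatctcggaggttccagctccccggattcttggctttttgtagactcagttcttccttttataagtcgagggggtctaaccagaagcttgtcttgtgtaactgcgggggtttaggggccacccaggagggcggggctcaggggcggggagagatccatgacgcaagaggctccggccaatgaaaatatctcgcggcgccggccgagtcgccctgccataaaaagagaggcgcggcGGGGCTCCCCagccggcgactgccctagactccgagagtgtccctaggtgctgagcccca
Ass1: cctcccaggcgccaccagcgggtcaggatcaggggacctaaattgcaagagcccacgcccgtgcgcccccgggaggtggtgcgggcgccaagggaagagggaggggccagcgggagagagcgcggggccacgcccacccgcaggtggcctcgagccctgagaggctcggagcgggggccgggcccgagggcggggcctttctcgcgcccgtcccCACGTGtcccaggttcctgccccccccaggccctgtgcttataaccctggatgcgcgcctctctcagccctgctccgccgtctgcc
Oaz1: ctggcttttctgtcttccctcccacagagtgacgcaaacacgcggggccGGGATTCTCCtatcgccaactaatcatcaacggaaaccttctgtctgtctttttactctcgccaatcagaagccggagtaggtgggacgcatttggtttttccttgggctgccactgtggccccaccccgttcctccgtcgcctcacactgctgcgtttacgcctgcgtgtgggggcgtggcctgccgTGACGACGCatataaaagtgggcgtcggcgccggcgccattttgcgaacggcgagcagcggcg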

How the data were processed

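The submitters' processing notes name HISAT2 2.0.5, StringTie 1.3.3b and featureCounts 1.5.0-p3. The authors deposited raw counts per gene. The authors also deposited FPKM values, which matched the counts after scaling to gene length and library size, up to a constant for each library of 0.932 to 1.103 relative to each other (100% of 9747 genes within 1%). Counts were tested in edgeR 4.0.16 (R 4.3.3) with filterByExpr, TMM, glmQLFit and glmQLFTest, 1 coefficient a condition, and the common dispersion was 0.00192. The script was tested on simulated data. Ratios and levels used FPKM in pandas 2.3.3 and numpy 2.4.6 under Python 3.11.15, intervals scipy 1.17.1 and figures matplotlib 3.10.9. Likeness used log2 CPM with a prior count of 2 among tested genes with a mean of at least 50 counts. Standard errors used log2 CPM with the same prior count. Shared words of 50 bases were taken from GENCODE transcripts. Genes named beside the members had an absolute log2FC of at least 1 at an FDR below 0.05 in a comparison of conditions, or were the partners *Slc7a1*, *Asl*, *Amd1*, *Sms*, *Smox* and *Eif5a*. A few genes, 1 of those chosen by symbol and others of the lists, are not reported here and are in no count of members or lists. The members and lists were chosen with earlier results of these data known. Alternatives were DESeq2 1.42.0, limma 3.58.1 on log2(FPKM + 1) and log2(FPKM + 0.1), other scalings, filters and thresholds, the replicate number as a block, the compared conditions alone, and each library left out. Protein sequences were not used here.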

Additional observations from a re-analysis of the deposited data

Results flagged for a closer look

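The direct test of whether the change with TBHQ depended on the stimulus called 1 gene among the members, the pathway lists and the cell type markers. Tested were 44 genes of the lists, members included, and the 7 macrophage markers. Of all 13691 genes, 1.83% were called in that test, so 1 call is near the share over all genes. *Ptprc*, the CD45 marker of blood cells, had a difference of -0.21 ± 0.044 in log2FC between PIC and LPS (FDR 0.0296). Its level was 19.8, 20.3 and 20.9 FPKM with PIC and 15.8, 16.5 and 16.6 with PIC + TBHQ, beside 14.7, 15 and 15 with LPS and 13.4, 14.1 and 14.3 with LPS + TBHQ.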

How the results depend on the processing

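Over 10 other fits and 18 libraries left out in turn, 1847 values of single genes were recomputed: 1758 kept their direction and their side of the FDR threshold, 27 calls were lost, 18 were gained and 44 changed sign. The sign of 1 called value changed, that of *Eif5a* with PIC, to -0.13 under scaling to library totals. The alternative that sums pseudogene counts was chosen after seeing the data, and under a mean of at least 50 counts *Ass1* was not tested. The cause of the other changes was not tested.

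Requiring also an absolute log2FC above 1 left 0 members for TBHQ against control, 5 for LPS, 4 for LPS + TBHQ against control, and 1 each for the change with TBHQ under LPS, for that under PIC and for PIC against LPS, since fewer genes can pass. Of the other list genes it left 0 in 6 of these comparisons, 3 for PIC and 1 for PIC + TBHQ against control. At an FDR below 0.01, 8 other list genes were left for TBHQ and for PIC against LPS. The shares of all genes past these limits are not given, so these counts of members and list genes are only a description. For TBHQ against control, 8 to 11 other list genes were called when a library was left out, the 8 without control replicate 3, beside 14 of 35 (40%) with all libraries, where 22.9% to 24.9% and 29.0% of all genes were called. The difference of the TBHQ change between stimuli was called for 1 member by limma on log2(FPKM + 1) and for 0 to 1 with a library left out, and for 1 other list gene under library totals and 0 to 1 with a library left out. Of all genes, 0.979% were called in that limma fit, 2.26% under library totals and 1.14% to 2.52% with a library left out. Past the study's threshold with LPS, limma with 1 and 0.1 added gave 1 and 1 members, beside 60 and 148 of all 13691 genes. With LPS + TBHQ these fits gave 0 and 0 members, beside 29 and 83 genes. With PIC + TBHQ, limma with 1 added gave 2 members, beside 73 genes. With a library left out, 1 to 2 members passed for LPS + TBHQ, beside 133 to 153 genes. At an absolute log2FC above 1, 5 members passed for LPS and 4 for LPS + TBHQ, and the share of all genes at that limit is not given.

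The other values that changed sign were not called with TMM. Under library totals they were *Oaz1* for PIC + TBHQ against control (-0.137, called there) and PIC against LPS (-0.031), *Azin1* for PIC against LPS (-0.123, called there), and with TBHQ under PIC *Eif5a* (0.0302) and *Slc7a1* (0.042). *Eif5a* with LPS gave 0.0042 under a mean of at least 50 counts. For the difference between stimuli, *Srm* gave -0.00557 (RLE), -0.00793 (no filter), -0.00334 (mean of at least 50 counts), -0.00392 (compared conditions alone), -0.0041 (DESeq2), -0.00446 and -0.00427 (limma), and *Ass1* gave -0.0257 and -0.0597 (limma).

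With libraries left out, log2FC of *Ass1* ranged from -0.746 to 0.0102 for TBHQ, from -0.547 to 0.0642 and from -0.278 to 0.0488 for TBHQ under LPS and PIC, and from -0.222 to 0.379 for the difference. *Oaz1* ranged from -0.0586 to 0.029 for TBHQ, from -0.0106 to 0.0332 for PIC + TBHQ against control and from -0.0369 to 0.0665 for the difference. *Srm* ranged from -0.0383 to 0.0152 for PIC + TBHQ against control and from -0.0336 to 0.0382 for the difference. *Azin1* for PIC against LPS ranged from -0.0123 to 0.0458, *Slc7a2* for TBHQ from -1 to 0.192, *Eif5a* for LPS from -0.0323 to 0.00266 and *Sms* for PIC from -0.191 to 0.0129.

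Libraries with the same replicate number were at most weakly alike: of 45 such pairs, 2 had a correlation of deviations above 0.1 (median 0.026, beside -0.0114 for pairs with other numbers). By mean correlation, 11 of 18 libraries were closest to their own number, so a weak pairing is not excluded. With the number as a block, 9, 8, 6 and 7 members were called for LPS, PIC, and TBHQ under LPS and under PIC, as without it. Of all genes, 48.3%, 58.9%, 24.2% and 31.7% were called in that fit. Depth limits *Ass1* and *Slc7a2*, at 1 to 12 counts in unstimulated libraries.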
